A study of Homo sapiens with 6 samples.

Results

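The 10 genes described here encode the interleukin 1 cytokines, interleukin 6 and LIF, their downstream chemokine CCL2 and adhesion molecule VCAM1, the NF-kB precursors, and inhibitors of NF-kB. They are IL1A, IL1B, IL6, LIF, CCL2, VCAM1, NFKB1, NFKB2, NFKBIA and TNFAIP3, chosen by their symbols in the probe annotation, 10 of the 18417 genes measured. U373MG, an established human glioblastoma cell line, was profiled on 6 Affymetrix Human Gene 1.0 ST arrays, whose probes are spread over the length of each transcript. Cells were exposed for 24 hours to ET-770 (an ecteinascidin) at 4.83 nM, to ET-770-DR, its pyridinecarbonyl derivative, at 1.70 nM, or to RM (renieramycin M) at 3.10 nM, which were the IC50 values of the study. These are marine tetrahydroisoquinoline alkaloids or made from them, and the study asked which genes they alter in glioblastoma cells that undergo apoptosis. Cells that received an equal volume of DMSO, the vehicle, served as controls. There were 3 independent experiments, and each of them consisted of 1 compound array and 1 DMSO array. All arrays came from this line in serum-containing medium, so that they hold no immune, endothelial or normal glial cells by design. Each of the 10 genes was read by 1 probe set.

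Interleukin 1 alpha and beta bind the same receptor and start a cascade of adaptors and kinases that ends in the degradation of inhibitors of the IkB family, whereupon NF-kB dimers enter the nucleus and bind DNA. NFKBIA (IkB alpha) and TNFAIP3 (A20) are themselves targets of NF-kB that switch the pathway off, whereas IL6, LIF, CCL2 and VCAM1 are targets that carry the signal outward. In glioblastoma, interleukin 6 and LIF signal through the shared receptor chain gp130 to JAK kinases and STAT3.

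The median log2 signal of all genes was 7.92 with ET-770 and 7.98 in its DMSO cells, 7.22 with ET-770-DR and 7.28 in its DMSO cells, and 7.41 with RM and 7.40 in its DMSO cells. Experiments thus differed more than the arrays within them, and each compound was compared with its own DMSO array. Of 12 astrocytic glioma markers, 9 lay above the array median on all 6 arrays (S100B, VIM, NES, SLC1A3, SOX2, SOX9, CD44, FABP7 and EGFR), GFAP did so on 1 array, and AQP4 and CHI3L1 on none. In the shared test described below, 7 of these 12 fell and 0 rose, with a median log2 change of -0.56, and their summed linear signal was 28546, 16991 and 24746 with ET-770, ET-770-DR and RM, against 36211, 23622 and 36354 in the DMSO cells of the same experiments. Of 10 myeloid markers, CD68 alone was above the median on all arrays, where it rose by 0.58 (limma adjusted p = 0.0062), and 8 were below it on all arrays, PTPRC, AIF1 and CSF1R among them. Their summed signal was 2965, 2239 and 1534 with the 3 compounds, against 2231, 1614 and 1130 with DMSO. Most of this sum came from CD68 (log2 signals of 11.23, 10.84 and 10.06, against 10.71, 10.18 and 9.49), and the other 9 did not pass the test. Of 9 lymphocyte and endothelial markers, 0 were above the median on all arrays and 0 passed the test, and their sum was 466 to 908 with the compounds, against 403 to 958 with DMSO. The part of these markers in the results below was not tested. RNA from whole cultures was measured, so that fewer cells with a transcript and less of the transcript per cell cannot be told apart.

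The members moved in both directions. IL1A, IL1B, NFKB2, NFKBIA and TNFAIP3 rose, IL6 and VCAM1 fell, and LIF, CCL2 and NFKB1 did not pass the test. The test was that of limma, fitted to the log2 signals of every gene with a term for the experiment, in which the 3 compounds served as replicates of each other (n = 3 pairs), with a Benjamini-Hochberg adjusted p under 0.05. By this test 13.1% of all genes rose and 11.2% fell, so that a call is common on these arrays, and 5 of 10 and 2 of 10 are to be read against those shares. The 5 that rose were higher in all 3 pairs, as were 29.6% of all genes, and the 2 that fell were lower in all 3 pairs, as were 20.6%. The median log2 change of the 10 was 0.29, against 0.03 for all genes. For none of the 10 were the compound arrays all above or all below the DMSO arrays, whereas 3.62% of all genes lay wholly above and 5.34% wholly below. The calls rest on the pairing. Without the experiment in the limma fit, 0 of the 10 passed and 4 of the 10 had an unadjusted p under 0.05. Few genes passed that fit at all, since 26 of the 18417 rose and 369 fell, and 1458 had an unadjusted p under 0.05.

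**Figure D1:**
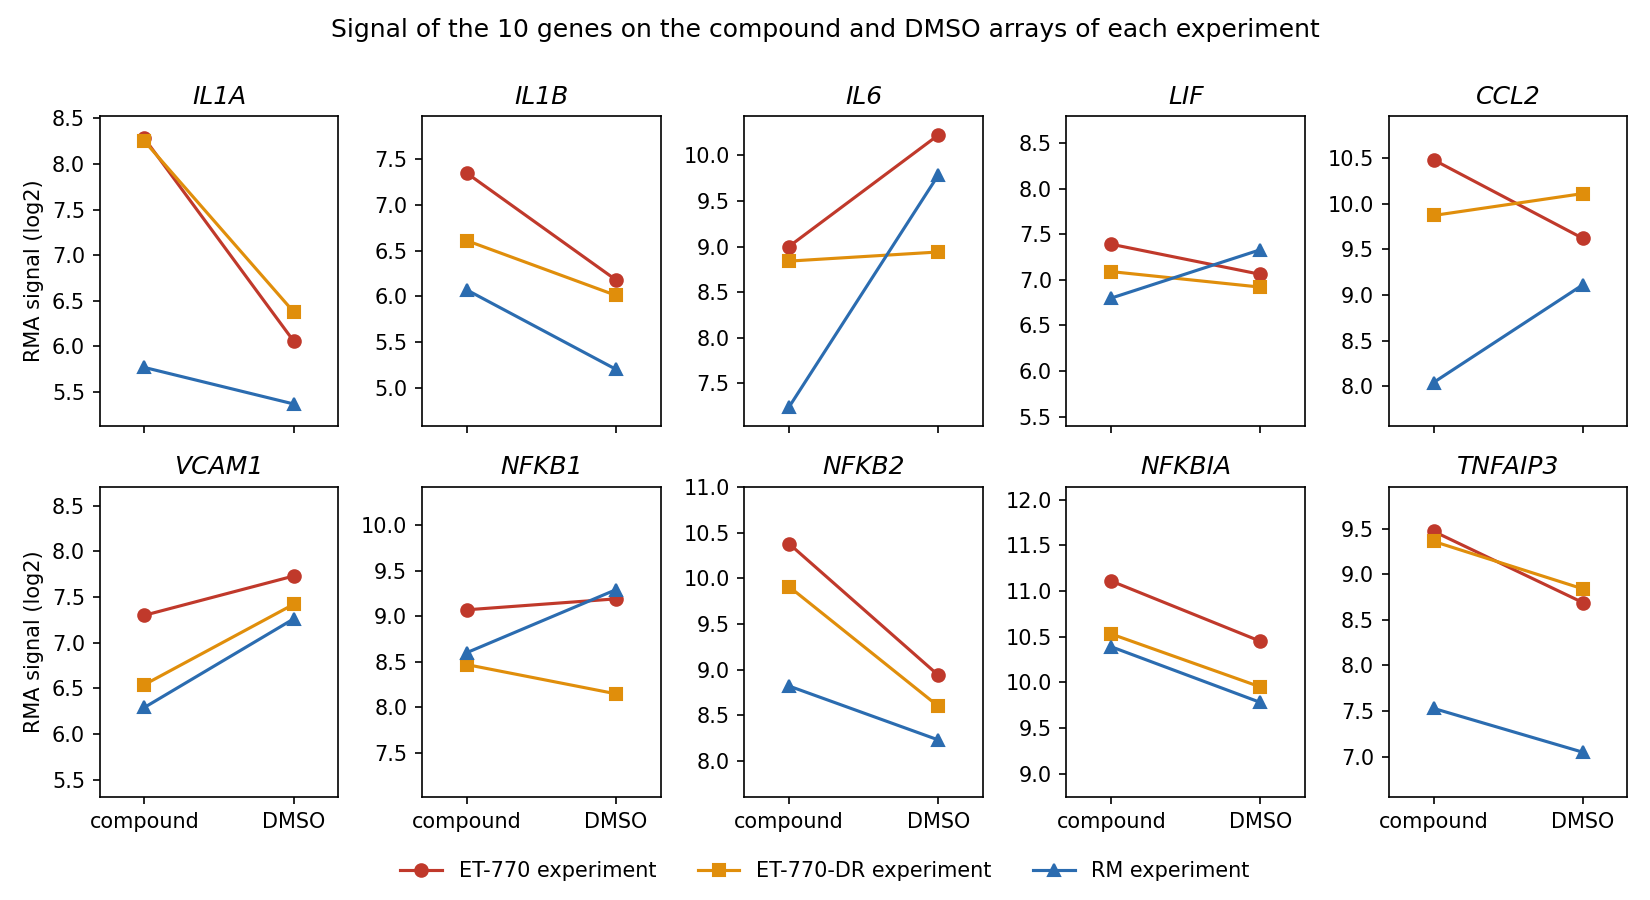
RMA signal (log2, vertical axis, each panel with a scale of the same length) of the 10 genes, with the compound array on the left and its own DMSO array on the right of each panel, joined by a line for each of the 3 experiments. All lines fall towards DMSO for IL1A, IL1B, NFKB2, NFKBIA and TNFAIP3 and climb towards DMSO for IL6 and VCAM1, while the lines cross in direction for LIF, CCL2 and NFKB1.

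The promoter sequences of these genes are shown because most of the 10 are known targets of NF-kB, which binds a consensus of 10 bases. The stretch of 250 bases upstream of each annotated start was taken from RefSeq (GRCh38.p14) and searched on both strands for that consensus, for the AP-1 motif TGANTCA and for the cyclic AMP response element TGACGTCA. Sequences of 8 members were found in the table, with 12 annotated starts between them. LIF and CCL2 were not analysed here. The NF-kB consensus was matched upstream of 7 of the 12 starts, against 5.21% of the 35116 starts in the table. Those starts belong to 6 of the 8 genes, for which no share per gene was computed. Because most of these genes are known targets, the shares are a description only. IL1A and IL1B held no match in these windows. The lines below give each match in capitals with 10 flanking bases on each side, 5′ to 3′ on the strand of the gene.
IL6, chr7:22727117-22727146, plus strand: tatcaaatgtGGGATTTTCCcatgagtctc
VCAM1, chr1:100719670-100719699, plus strand: tccccttgaaGGGATTTCCCtccgcctctg
NFKB1, chr4:102501300-102501329, plus strand: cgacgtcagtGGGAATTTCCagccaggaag
NFKB2, chr10:102394461-102394490, plus strand: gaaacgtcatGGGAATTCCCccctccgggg
NFKB2, chr10:102394490-102394519, plus strand: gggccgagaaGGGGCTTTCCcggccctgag
NFKB2, chr10:102395519-102395548, plus strand: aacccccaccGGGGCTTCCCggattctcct
NFKB2, chr10:102395674-102395703, plus strand: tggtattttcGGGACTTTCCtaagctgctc
NFKBIA, chr14:35404811-35404840, minus strand: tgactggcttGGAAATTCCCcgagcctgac
TNFAIP3, chr6:137867182-137867211, plus strand: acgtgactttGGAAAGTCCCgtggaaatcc
TNFAIP3, chr6:137867194-137867223, plus strand: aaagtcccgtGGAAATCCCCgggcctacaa

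The matches of IL6, VCAM1, NFKB1, NFKBIA and TNFAIP3 began at positions -73, -62, -49, -81 and -67 from the annotated start, with the other TNFAIP3 match at -55. NFKB2 has 3 annotated starts in the table. The first pair of its lines begins at -107 and -78 from one of them, where a further match overlaps the first by all but 1 base, and the other pair begins at -176 and -21 from another. In NFKBIA and TNFAIP3 the consensus is read on the strand opposite to the gene. The genes with a match include 3 that rose (NFKB2, NFKBIA, TNFAIP3), 2 that fell (IL6, VCAM1) and NFKB1, which did not pass. A match is a description of letters and shows no binding. The whole stretches of IL6, which fell, and of NFKBIA, which rose, are given for context, with the match in capitals.
IL6, chr7:22726950-22727199, plus strand: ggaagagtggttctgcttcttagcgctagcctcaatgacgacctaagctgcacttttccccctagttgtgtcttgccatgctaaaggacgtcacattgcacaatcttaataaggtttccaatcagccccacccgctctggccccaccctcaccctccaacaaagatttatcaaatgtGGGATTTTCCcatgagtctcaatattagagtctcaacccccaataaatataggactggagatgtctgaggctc
NFKBIA, chr14:35404750-35404999, minus strand: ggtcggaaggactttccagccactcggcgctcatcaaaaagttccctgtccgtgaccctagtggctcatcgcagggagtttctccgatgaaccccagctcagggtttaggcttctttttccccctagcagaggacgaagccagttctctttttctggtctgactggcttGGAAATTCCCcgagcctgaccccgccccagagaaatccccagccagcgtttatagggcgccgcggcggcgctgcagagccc

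The AP-1 motif was matched upstream of both annotated starts of IL1A and of no other member, against 6.57% of all starts, and its letters, in capitals, began at -105 and -55 from the downstream start. The cyclic AMP response element was matched in 0 of the 12 stretches, against 1.65% of all.
IL1A, chr2:112784489-112784515, minus strand: cgaagaagacTGACTCAggcttaagct
IL1A, chr2:112784439-112784465, minus strand: cattggcgttTGAGTCAgcaaaggtat

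**Figure D2:**
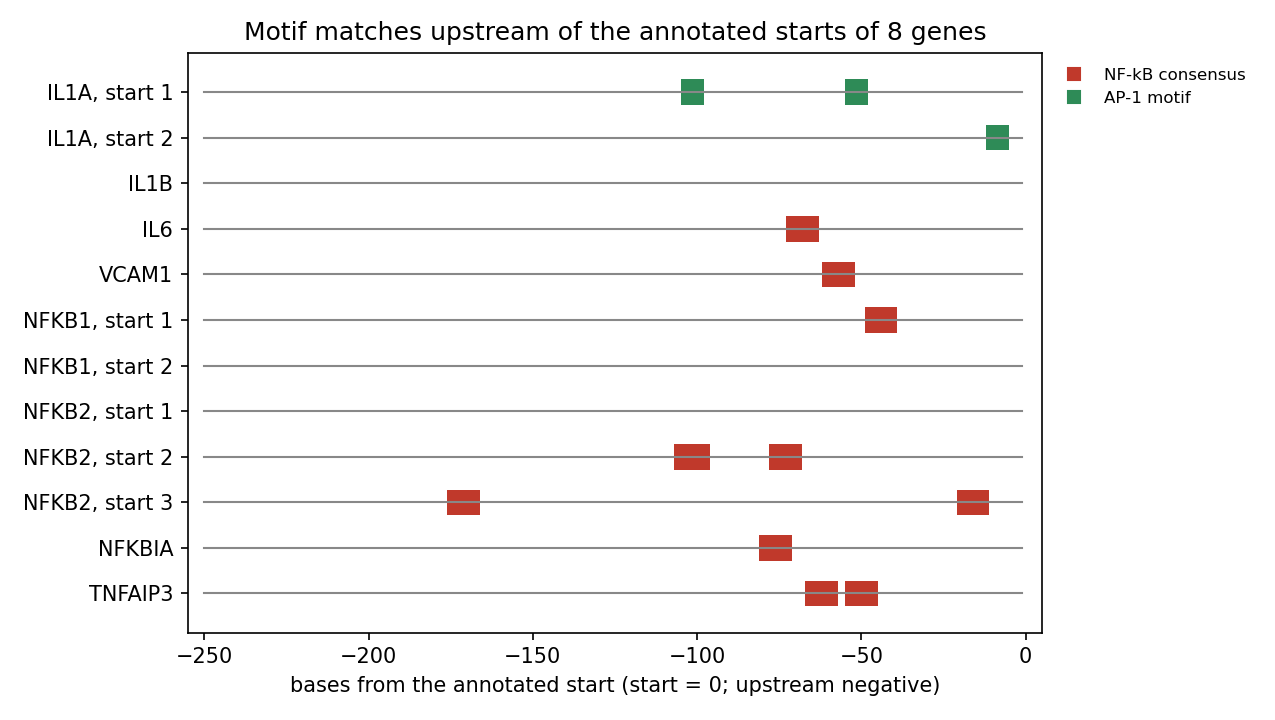
Positions of the NF-kB consensus (red) and of the AP-1 motif (green) in the 250 bases upstream of each of the 12 annotated starts of 8 genes (horizontal axis, bases from the start). The NF-kB matches of IL6, VCAM1, NFKB1, NFKBIA and TNFAIP3 lie between positions -81 and -40, and IL1A holds the AP-1 motif alone.

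IL1A, which encodes interleukin 1 alpha, the form that is also released from dying cells, had the largest mean rise of the 10. Its log2 signal was 8.28 with ET-770 against 6.06 in its DMSO cells, 8.25 with ET-770-DR against 6.38, and 5.77 with RM against 5.37. Cells exposed to ET-770 and ET-770-DR stood above all DMSO cells, whereas those exposed to RM stood below the DMSO cells of the other 2 experiments. The corresponding folds were 4.66, 3.66 and 1.32, which placed IL1A at rank 4, rank 27 and rank 3014 among the rises of 18417 genes. The mean log2 change was 1.50 ± 0.28 (limma moderated SE, n = 3 pairs, 95% interval 0.86 to 2.14, adjusted p = 0.004). The 3 changes had an SD of 0.96, which is the widest spread among the members that rose, and the interval is narrower than they alone would give. The mean lay between 1.14 and 2.05 when each experiment was left out. The folds rest on dim controls, since IL1A was above the array median on the ET-770 and ET-770-DR arrays alone, and its change with RM was -0.16 when the mean of the DMSO arrays was the control.

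IL1B encodes interleukin 1 beta, the form that needs cleavage by caspase 1, and neighbours IL1A on chromosome 2. On the arrays it read 7.35 with ET-770 against 6.18 in its DMSO cells, 6.61 with ET-770-DR against 6.01, and 6.07 with RM against 5.20. The signal was below the array median on all 6 arrays, so that the gene was read near the dim end of the array. Its mean change was 0.88 ± 0.14 (95% interval 0.56 to 1.19, adjusted p = 0.0016), with folds of 2.24, 1.52 and 1.83. Unlike IL1A, its rise with RM (0.87) lay between those with ET-770 (1.16) and ET-770-DR (0.60), and the SD of the 3 changes was 0.28.

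IL6, the founding cytokine of the gp130 family, fell while the interleukin 1 genes rose. The log2 signal of IL6 was 9.00 with ET-770 against 10.22 in its DMSO cells, 8.84 with ET-770-DR against 8.94, and 7.24 with RM against 9.78. All compound arrays were below their own DMSO arrays, although the level with ET-770 exceeded 1 of the DMSO levels, that beside ET-770-DR. The folds were 0.431, 0.937 and 0.173. The fall with RM was at rank 25 of 18417, that with ET-770 at rank 655, and that with ET-770-DR at rank 8007, near the middle of all genes. The mean change was -1.28 ± 0.35 (95% interval -2.06 to -0.50, adjusted p = 0.024), with an SD of 1.22 between the pairs, the widest of the 10. That interval is narrower than the pairs of IL6 alone would give. Without the RM experiment the mean was -0.65, and IL6 passed the test in each of the 3 fits that left out an experiment. Those fits hold fewer pairs, whose spread has little weight in the test. A pass there does not show that the compounds agreed.

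LIF, which signals through gp130 with its own receptor, had a log2 signal of 7.39 with ET-770 against 7.06 in its DMSO cells, 7.09 with ET-770-DR against 6.92, and 6.80 with RM against 7.33. It was higher with ET-770 (0.33) and ET-770-DR (0.17), lower with RM (-0.53), and the levels with compounds overlapped those with DMSO. The mean was -0.01 ± 0.17 (95% interval -0.39 to 0.37, adjusted p = 0.98), which leaves room for a shared change of about that width in either direction.

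CCL2, the chemokine that draws monocytes to sites of inflammation, was above the array median on all 6 arrays and differed in direction between the compounds. Cells had a log2 signal of 10.48 with ET-770 against 9.62 in its DMSO cells, 9.87 with ET-770-DR against 10.11, and 8.04 with RM against 9.11. The folds were 1.81, 0.846 and 0.476. The mean change was -0.15 ± 0.28 (95% interval -0.79 to 0.49, adjusted p = 0.81). Without the ET-770 experiment it was -0.66 and passed the test (adjusted p = 0.036), and without the RM experiment it was 0.31 and did not (adjusted p = 0.16). The log2 changes left without ET-770 were -0.24 and -1.07, and the spread between pairs has little weight in such a fit.

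VCAM1, the endothelial and glial adhesion molecule that binds integrins of leukocytes, fell with each compound. The log2 values of VCAM1 were 7.30 with ET-770 against 7.73 in its DMSO cells, 6.54 with ET-770-DR against 7.42, and 6.29 with RM against 7.26. Levels with ET-770-DR and RM were below all DMSO cells, and the level with ET-770 was between those of the DMSO cells of the other experiments. The folds were 0.741, 0.543 and 0.511. The mean change was -0.76 ± 0.14 (95% interval -1.08 to -0.44, adjusted p = 0.0037), with an SD of 0.29.

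**Figure D3:**
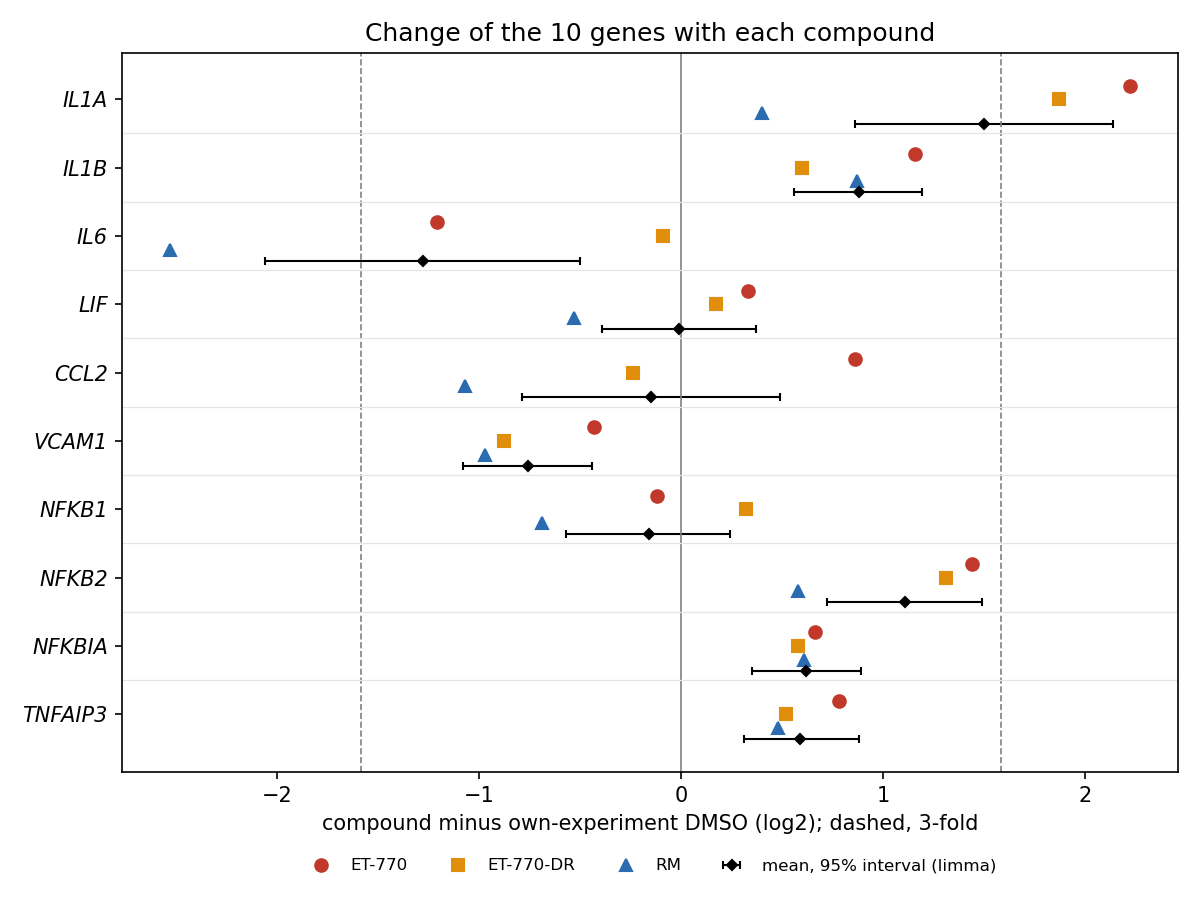
Log2 change of each of the 10 genes with each compound, relative to its own DMSO array (horizontal axis, coloured points, 1 array per arm), with the mean and its 95% interval from limma (black) and the 3-fold lines (dashed). IL1A passes the upper line with ET-770 and ET-770-DR, IL6 passes the lower line with RM, and the points of NFKBIA lie closest together.

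Of the NF-kB precursors, NFKB2 rose and NFKB1 did not pass the test. NFKB2 encodes p100, which is processed to p52 in the non-canonical pathway and is itself an inhibitor before processing. Its log2 signal was 10.38 with ET-770 against 8.94 in its DMSO cells, 9.91 with ET-770-DR against 8.60, and 8.82 with RM against 8.23. ET-770 and ET-770-DR raised it above all DMSO cells, and the level with RM lay within the DMSO range. The folds were 2.71, 2.48 and 1.50, at ranks 84, 236 and 1174 among the rises. The mean change was 1.11 ± 0.17 (95% interval 0.72 to 1.49, adjusted p = 0.0013). NFKB1, which encodes p105 and its product p50, the canonical partner of RELA, had a log2 signal of 9.07 with ET-770 against 9.19 in its DMSO cells, 8.47 with ET-770-DR against 8.15, and 8.60 with RM against 9.29. Its changes of -0.12, 0.32 and -0.69 differed in direction, and the mean was -0.16 ± 0.18 (95% interval -0.57 to 0.24, adjusted p = 0.64). The intervals of NFKB2 and NFKB1 do not overlap, but the difference between the 2 genes was not tested.

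Both inhibitors of the pathway rose with each of the 3 compounds. NFKBIA encodes IkB alpha, which holds NF-kB dimers in the cytoplasm and is resynthesized when they are active. Its log2 signal was 11.11 with ET-770 against 10.45 in its DMSO cells, 10.53 with ET-770-DR against 9.95, and 10.39 with RM against 9.78. The folds were 1.58, 1.50 and 1.53, and the SD of the 3 log2 changes was 0.04, the narrowest of the 10 genes. The mean change was 0.62 ± 0.12 (95% interval 0.35 to 0.89, adjusted p = 0.0044), with an SE that exceeds the SD because limma draws each gene's variance towards that of all genes.

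TNFAIP3 encodes A20, an enzyme that edits ubiquitin chains on the kinases upstream of NF-kB. The signal, on the log2 scale, was 9.47 with ET-770 against 8.69 in its DMSO cells, 9.36 with ET-770-DR against 8.84, and 7.53 with RM against 7.05. The cells of the RM experiment stood low under both treatments, and the range over the DMSO arrays, 1.79 log2 units, was the widest of the 10. Within experiments the changes were 0.78, 0.52 and 0.48, with a mean of 0.59 ± 0.13 (95% interval 0.31 to 0.88, adjusted p = 0.0075). When the mean of the 3 DMSO arrays was used as the control, the change with RM was -0.66. Without the ET-770 experiment neither inhibitor passed, with means of 0.60 for NFKBIA (adjusted p = 0.066) and 0.50 for TNFAIP3 (adjusted p = 0.16).

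By the 3-fold threshold of the study, each compound altered 1 of the 10 genes. IL1A exceeded 3-fold with ET-770, as did 0.233% of all genes, and with ET-770-DR, as did 0.51%, and IL6 was more than 3-fold lower with RM, as were 1.36% of all genes. None of the 10 was lowered past 3-fold with ET-770 or ET-770-DR, where 2.15% and 2.12% of all genes were, and none exceeded 3-fold with RM, where 0.0434% did. At 2-fold, 3 of the 10 were higher with ET-770 (IL1A, IL1B and NFKB2, against 2.01% of all genes) and 1 lower (IL6, against 4.68%). With ET-770-DR 2 were higher (IL1A and NFKB2, against 3.84%) and 0 lower (against 4.94%), and with RM 0 were higher (against 0.668%) and 2 lower (IL6 and CCL2, against 4.28%). With ET-770 the median log2 change of the 10 was 0.72, against 0.02 for all genes, with ET-770-DR it was 0.42, against -0.03, and with RM it was -0.06, against 0.12. Between ET-770 and its derivative, the log2 changes were 2.22 and 1.87 for IL1A, 1.44 and 1.31 for NFKB2, 0.66 and 0.58 for NFKBIA, -1.21 and -0.09 for IL6, and 0.86 and -0.24 for CCL2. These values stand side by side only, since the doses differed, each compound had 1 array, and a compound and its experiment cannot be told apart.

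The DMSO arrays themselves differed between experiments, with median log2 signals of all genes of 7.98, 7.28 and 7.40 beside ET-770, ET-770-DR and RM. As deposited, levels compared across experiments, such as ranges and overlaps, include this difference between arrays as well as any between the cells. The range of log2 signals over the 3 DMSO arrays was 1.28 for IL6, 1.14 for NFKB1, 1.01 for IL1A, 1.0 for CCL2, 0.98 for IL1B, 0.71 for NFKB2, 0.68 for NFKBIA, 0.48 for VCAM1 and 0.41 for LIF, beside 1.79 for TNFAIP3 and a median of 0.92 over all genes. After quantile normalization of the 6 arrays the median over all genes was 0.52 and TNFAIP3 stayed widest at 1.97, followed by CCL2 at 1.24, while IL6 was at 0.55. As deposited, the largest change of TNFAIP3, NFKBIA and NFKB1 with any compound was smaller than the range of that gene between DMSO arrays, and in the other 7 genes it was larger.

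The other genes of these pathways were taken from 7 lists of 169 genes, of which 156 were measured. Of these, 30 rose (19.2%), 15 fell (9.62%) and 111 did not pass the test, with a median log2 change of 0.04, against 13.1%, 11.2% and 0.03 for all genes. Without the ET-770 experiment 11 rose and 11 fell, when 1200 and 1505 of all genes did. With the ET-770-DR experiment left out 19 rose, when 1581 of all genes did. Without the experiment as a block 0 rose and 2 fell (11 with an unadjusted p under 0.05 by limma). In that fit 26 of all genes rose and 369 fell (1458 with an unadjusted p under 0.05). No set test was made, so that a list's share is a description.

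In the interleukin 1 family, 4 of 27 measured genes rose and 2 fell, with a median of -0.05. These shares, 14.8% and 7.41%, stand beside 13.1% and 11.2% of all genes, so that the list as a whole was near the background. The genes that fell encode both chains of the interleukin 1 receptor. IL1RAP, the accessory chain, had a log2 signal of 7.90, 7.91 and 8.05 with ET-770, ET-770-DR and RM, against 9.52, 9.15 and 9.23 in their DMSO cells, and all compound arrays were below all DMSO arrays. Its mean change was -1.35 ± 0.13 (adjusted p = 0.00012), and its folds were 0.325, 0.422 and 0.441, past the 3-fold threshold with ET-770. IL1R1, the ligand-binding chain, had folds of 0.821, 0.774 and 0.359 and a mean of -0.71 ± 0.21 (adjusted p = 0.037), which did not pass without the RM experiment (-0.33, adjusted p = 0.064). CASP1, the enzyme that matures interleukin 1 beta, had folds of 1.93, 2.12 and 1.07 and rose by 0.71 ± 0.19 (adjusted p = 0.020), a call lost without ET-770 or ET-770-DR. Its signal was below the array median on all arrays. The adaptors MYD88 (0.47), IRAK2 (0.52) and TRAF6 (0.54), named after their values were seen, also rose, and no gene of this list other than IL1RAP was past 3-fold. The number that rose was 0 without the ET-770 experiment, 2 without that of ET-770-DR and 1 after quantile normalization.

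In the interleukin 6 family, 3 of 18 rose (16.7%, against 13.1% of all genes) and 5 fell (27.8%, against 11.2%), with a median of -0.09. JAK1, the kinase bound to gp130, had folds of 0.528, 0.491 and 0.534 with ET-770, ET-770-DR and RM and a mean change of -0.95 ± 0.12 (adjusted p = 0.00045), with little spread between compounds. JAK2 had folds of 0.568, 0.718 and 0.382 (mean -0.90 ± 0.17, adjusted p = 0.0042). The others that fell were OSMR (-0.60), PTPN11 (-0.51) and STAT3 (-0.38), which are the oncostatin M receptor, a phosphatase and the transcription factor of this pathway. IL11, another gp130 cytokine, rose by 0.70 ± 0.16 (adjusted p = 0.012), though not in the fit without ET-770-DR (0.48, adjusted p = 0.058). SOCS1 (0.52) and PIAS3 (0.46), which restrain JAK and STAT signalling, rose as well. Other genes that carry the signal of interleukin 6 did not pass the test, with mean changes of 0.38 for the kinase TYK2, 0.12 for IL6ST, which encodes gp130, and -0.26 for its receptor IL6R. The genes outside the rule were named after their values were seen. Without the ET-770 experiment, and likewise without that of ET-770-DR, 1 gene of this list rose and 3 fell.

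Among the subunits and inhibitors of NF-kB other than the members, 7 of 10 rose and 1 fell, with a median of 0.56. Of all genes 13.1% rose and 11.2% fell. The subunits REL (0.71), RELA (0.56) and RELB (0.44) and the IkB proteins NFKBIE (0.96), NFKBID (0.67) and NFKBIB (0.57) rose. So did NKRF (0.95 ± 0.13, adjusted p = 0.00082), a repressor of NF-kB target genes. NFKBIE had folds of 1.95, 1.77 and 2.15 with ET-770, ET-770-DR and RM (adjusted p = 0.00052). COMMD1, which promotes the removal of RELA from chromatin, fell by 1.72 on the log2 scale, with log2 signals of 8.36, 6.67 and 8.48 with the compounds, against 9.89, 8.68 and 10.11 in their DMSO cells. Its folds were 0.346, 0.248 and 0.324 (SE 0.14, adjusted p = 3.4e-05), and it was among the 2 pathway genes that passed without the block. The number that rose was 4 without the ET-770 experiment and 8 without the RM experiment.

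Of 32 kinases, adaptors and ubiquitin enzymes, 4 rose (12.5%, against 13.1% of all genes) and 6 fell (18.75%, against 11.2%), with a median of -0.06. BTRC, the F-box protein that marks phosphorylated IkB for degradation, had a log2 signal of 7.17, 6.67 and 7.61 with ET-770, ET-770-DR and RM, against 9.34, 8.83 and 8.78 in their DMSO cells, with no overlap. Its folds were 0.222, 0.224 and 0.446, and the mean change was -1.83 ± 0.19 (adjusted p = 0.00017). Its paralog FBXW11 had folds of 0.472, 0.531 and 0.520 (mean -0.98 ± 0.12, adjusted p = 0.0004). ITCH, a ubiquitin ligase that works with A20, fell by 0.67 on the log2 scale (SE 0.15, adjusted p = 0.0099), as did TNIP1 (-0.55), MALT1 (-0.50) and TAB2 (-0.41). CHUK (0.53) and IKBKG (0.50), subunits of the IkB kinase, rose together with TNIP2 (0.54) and RBCK1 (0.46). In the fit without the ET-770 experiment 0 of the 32 rose and 3 fell, and without that of ET-770-DR 1 rose.

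**Figure D4:**
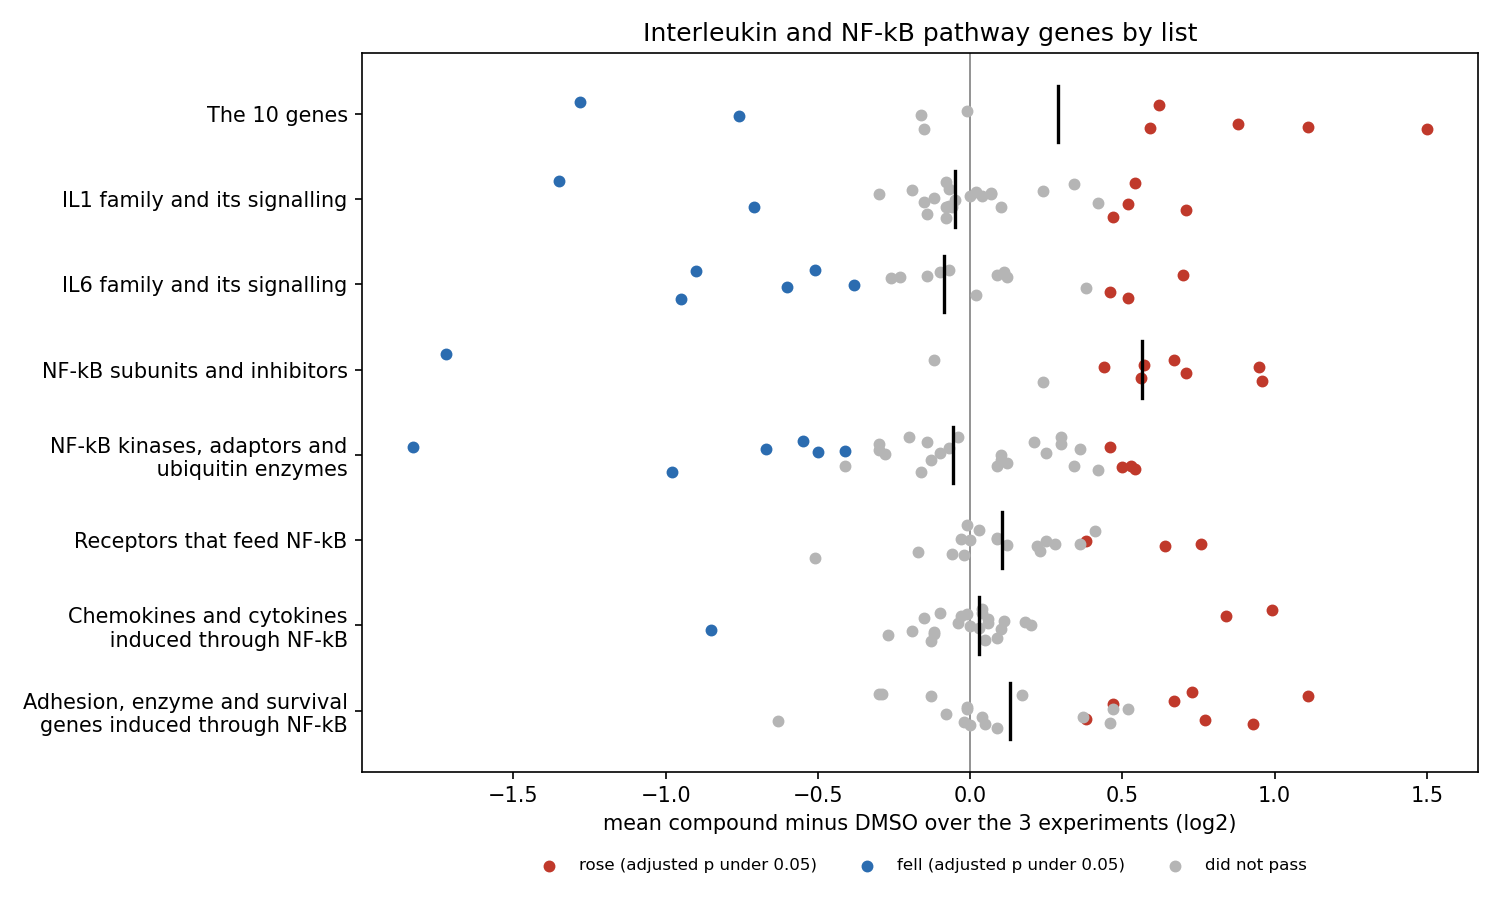
Mean log2 change, compound minus DMSO over the 3 experiments (horizontal axis), of the 10 genes and of the 156 other measured genes of the 7 pathway lists, each point a gene, coloured by its call in limma (adjusted p under 0.05), with the median of each list as a black bar. The list of NF-kB subunits and inhibitors has its median at 0.56, and the other lists have theirs between -0.09 and 0.13.

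The targets of NF-kB beyond the members moved unevenly. Of 25 chemokines and cytokines, 2 rose (8.0%) and 1 fell (4.0%), both below the 13.1% and 11.2% of all genes, with a median of 0.03. CXCL8 (interleukin 8), a chemokine for neutrophils, had a log2 signal of 9.89 with ET-770 against 8.53 in its DMSO cells, 11.70 with ET-770-DR against 9.97, and 8.83 with RM against 8.93. Its rise thus came with ET-770 (2.56-fold) and ET-770-DR (3.30-fold) and not with RM (0.933-fold), and the mean of 0.99 ± 0.28 (adjusted p = 0.030) was 0.63 without the ET-770-DR experiment (adjusted p = 0.10). CXCL2 had folds of 3.04, 1.86 and 1.02 (mean 0.84 ± 0.24, adjusted p = 0.030) and was at 0.46 without the ET-770 experiment (adjusted p = 0.21). CSF1, the growth factor of macrophages, fell by 0.85 on the log2 scale (SE 0.19, adjusted p = 0.009), with folds of 0.709, 0.669 and 0.357, and by 0.54 without the RM experiment.

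Of 24 adhesion, enzyme and survival genes, 7 rose (29.2%, against 13.1% of all genes) and 0 fell (against 11.2%) at the adjusted threshold, with a median of 0.13. IRF1, a transcription factor of the interferon response, had folds of 2.38, 2.30 and 1.83 with ET-770, ET-770-DR and RM and the largest mean of this list, 1.11 ± 0.13 (adjusted p = 0.00031). TNFAIP6, a hyaluronan-binding protein, had folds of 1.58, 2.55 and 1.71 (mean 0.93 ± 0.15, adjusted p = 0.002). SOD2, the mitochondrial superoxide dismutase, had folds of 1.63, 2.14 and 1.41 (mean 0.77 ± 0.14, adjusted p = 0.0039). TNFAIP2 (0.73), CD83 (0.67), GADD45B (0.47) and MMP3 (0.38) rose less. The call of MMP3 was at the threshold (limma adjusted p of 0.05 when rounded), and its signal was below the array median on all arrays. TNFAIP6 was above the array median on 1 array only. With the ET-770 experiment left out 4 of this list rose and 1 fell, and 10 rose without that of RM. Of 20 receptors that feed NF-kB and their adaptors, 3 rose and 0 fell. TLR4, the receptor for lipopolysaccharide, had its largest fold with RM (1.44, 1.25 and 2.73, mean 0.76 ± 0.20, adjusted p = 0.020) and a mean of 0.42 without that experiment. The other genes of this list that rose were the adaptor TICAM1 (0.64, adjusted p = 0.0076) and the receptor LTBR (0.38, adjusted p = 0.045). Neither passed without the ET-770 experiment, where 1 gene of the list rose, and 5 rose without that of RM.

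The genes whose log2 signal over the 6 arrays was most like that of IL1A were ZNF445 (Pearson r = 0.994), CENPU (0.987) and HAUS2 (0.986), and 65 genes had an r over 0.95. CENPU, a centromere protein, changed by 1.04, 1.08 and 0.15 with ET-770, ET-770-DR and RM, beside 2.22, 1.87 and 0.40 for IL1A. Those most like IL6 were STXBP4 (r = 0.989), POLK (0.981) and SCYL2 (0.976), and 22 genes had an r over 0.95. POLK, a DNA polymerase, changed by -0.47, -0.11 and -0.79, beside -1.21, -0.09 and -2.53 for IL6. Neither POLK (limma adjusted p = 0.053) nor STXBP4 (0.12) nor SCYL2 (0.17) passed the test. With ET-770-DR, STXBP4 and SCYL2 changed by 0.04 and 0.03. These correlations describe 6 arrays that share experiments and the differences in signal between them.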

How the data were processed

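RNA from 6 cultures was measured on 1 array each. The deposited values are log2 signals for 33297 probe sets, which the authors computed by RMA in Affymetrix Expression Console from the scanned arrays; the version, and whether the experiments were normalized together, are not given in the sources used here. Probe sets with 1 gene symbol (19460) were used, and those with several (1754) or none (12083) were left out. They were averaged per gene, giving 18417 genes, of which 18388 have their Entrez ID in the RefSeq gene table. Treatment was tested with limma 3.58.1 in R 4.3.3, with the experiment as a block and eBayes without trend. The Benjamini-Hochberg adjustment ran over all genes. The 2 residual degrees of freedom were joined by 7.39 prior ones. The p-values rest on the spread between 3 pairs, which differ in compound and dose as well as in experiment. With more prior than residual degrees of freedom, that spread is drawn towards that of all genes. For genes with a wide spread, the SE and interval are thus narrower than their own pairs would give. This holds for IL6 (SD 1.22, SE 0.35) and IL1A (SD 0.96, SE 0.28), and also for CXCL8 (SD 0.96, SE 0.28) and CXCL2 (SD 0.79, SE 0.24). The labels name the control of each compound. Deviations from the mean of each arm correlated at 0.83, 0.69 and 0.82 within experiments and at most at 0.24 between them. The number of arrays limits the precision. Fits that left out an experiment held 2 pairs, and their calls follow the mean change more than the spread of a gene's pairs. Without the ET-770 experiment, the pairs of VCAM1 were -0.88 and -0.97 and those of IL1R1 were -0.37 and -1.48. Both genes had a mean of -0.92 and the same adjusted p by limma, 0.0011. The fit was also run on simulated data, with noise drawn from limma's own prior and the same change for every compound. That run cannot show how the test behaves where compounds differ.

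All members are named. Of each of 7 pathway lists the text names the 3 genes with the largest mean change among those that passed and any gene past 3-fold, and for IL1A and IL6 the 3 most correlated genes; other called genes of the lists were named after their values were seen. The members and lists were chosen with earlier results of these data known. Alternatives were a fit without the block, quantile normalization, eBayes with trend, a filter on dim genes, the brightest probe set, leaving out each experiment, the mean of the DMSO arrays as control, and a 2-fold threshold. Of the 169 listed pathway genes, 13 are not analysed here. Promoters were searched in Python 3.11.15 with pandas 2.3.3 and numpy 2.4.6, and figures drawn with matplotlib 3.10.9.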

Additional observations from a re-analysis of the deposited data

Results flagged for a closer look

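Among the 10 members and the pathway genes named by the rule, there were 4 in which the compounds moved the signal in opposite directions, and the difference between compounds was not tested, since each had 1 array and the doses differed. In the order ET-770, ET-770-DR, RM, the log2 changes of CCL2 were 0.86, -0.24 and -1.07, which spans 1.93. Those of CXCL8 were 1.36, 1.72 and -0.10, which spans 1.82. NFKB1 spanned 1.01, with changes of -0.12, 0.32 and -0.69. LIF spanned 0.85, with changes of 0.33, 0.17 and -0.53.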

How the results depend on the processing

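Without the experiment as a replicate block, limma called 0 of the 10 genes as risen and 0 as fallen, with adjusted p of 0.079 for IL1A and 0.17 for IL6. That fit called 0 and 2 of the 156 other pathway genes, and 26 and 369 of all 18417 genes. The mean changes stayed as they were. When each experiment was left out in turn, 3 to 5 of the 10 rose and 2 to 3 fell, and 11 to 40 pathway genes rose and 11 to 16 fell. Of all genes, 1200 to 3506 rose and 1505 to 2635 fell. The mean changes of LIF (-0.18 to 0.25), CCL2 (-0.66 to 0.31) and NFKB1 (-0.41 to 0.10) took either sign in those fits, being positive without the RM experiment (0.25, 0.31 and 0.10). The cause was not tested. Quantile normalization, eBayes with trend and the brightest probe set left 5 of the 10 risen and 2 fallen, and the filter on dim genes, which drops IL1B and LIF, left 4 and 2. Under quantile normalization 20 pathway genes rose and 15 fell, and IL1R1, CASP1, TLR4, LTBR, CXCL8 and CXCL2 did not pass. With ET-770, 2 members in place of 1 exceeded 3-fold when the mean of the DMSO arrays was the control, for which the median change of all genes was 0.45 in place of 0.02. That control also turned the sign of CCL2 (0.25), LIF (-0.02) and NFKB1 (-0.40) with ET-770-DR, of NFKB1 with ET-770 (0.19), and of IL1A (-0.16) and TNFAIP3 (-0.66) with RM. At 2-fold, 3 were higher and 1 lower with ET-770, 2 higher with ET-770-DR and 2 lower with RM. The range over DMSO arrays after quantile normalization was 0.55 for IL6 and 0.86 for LIF. Signals below the array median, as for IL1B and LIF on all arrays and for IL1A on all DMSO arrays, limit how small a change could be seen.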
